A study of Homo sapiens with 12 samples.

Results

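The SLC25 genes encode the mitochondrial carriers, and 38 of them were measured in cultured human acute myeloid leukaemia (AML) cells after the drug ASLAN003, in the established lines KG-1 and MOLM-14. Members were taken by name, as every gene whose symbol is SLC25A followed by a number. The table of 13881 rows held 39 such rows, which are 38 genes because SLC25A6 was listed once for chromosome X and once for chromosome Y with identical values. Carriers without a row, such as SLC25A18 and SLC25A31, are outside all counts here. All 38 passed the minimum of 1 FPKM in at least 3 libraries, which left 13336 genes for testing. FPKM counts fragments relative to the length of the transcript and the depth of the library, so levels can be set beside each other between genes. For SLC25A6 only the chromosome X row was kept. How fragments were divided between its identical rows is not stated, so its level beside other genes may be too low.

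Mitochondrial carriers are membrane proteins that exchange metabolites, nucleotides, cofactors and ions across the inner mitochondrial membrane, which is otherwise closed to them. They supply respiration with ADP, phosphate and fuel, export ATP and citrate, and bring in the cofactors and iron that the matrix cannot make. A few family members sit elsewhere, such as SLC25A17 in peroxisomes and SLC25A46 in the outer mitochondrial membrane. ASLAN003 is known as an inhibitor of dihydroorotate dehydrogenase (DHODH), the pyrimidine synthesis enzyme of the inner mitochondrial membrane, and carriers of pyrimidine nucleotides belong to the family.

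RNA was sequenced from 4 groups of 3 libraries each. They were KG-1 treated with ASLAN003 for 96 h, KG-1 treated with DMSO (the solvent) for 96 h, MOLM-14 treated with ASLAN003 for 96 h, and MOLM-14 treated with DMSO for 96 h. All cells grew in RPMI medium with fetal bovine serum, and no dose of the drug is stated in the sources used here. Each line is an established culture from 1 patient, MOLM-14 being known for an internal tandem duplication in FLT3. Nothing says that libraries of a group came from separate cultures, so a p-value here is set against variation among libraries that may be technical only.

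The estimated depth was 17720000 to 18760000 fragments per library. On the second principal component of all tested genes, MOLM-14 ASLAN003 replicate 1 stood at 36.2 and the remaining treated MOLM-14 libraries at 14.6 and 9.36, and calls in MOLM-14 that were lost without it are named below. The blood cell markers PTPRC, SPI1, CD33 and MPO were present in both lines, whereas the mean of CD34, a progenitor marker, was 0.08, 0.0933, 0.03 and 0.05 FPKM in KG-1 ASLAN003, KG-1 DMSO, MOLM-14 ASLAN003 and MOLM-14 DMSO. None of 10 erythroid markers was among the genes analysed. Of 12 mature myeloid markers, 11 rose in KG-1 (adjusted p under 0.05 in limma's moderated test), against 19.4% of all tested genes. The 12 summed to 27490 to 31810 FPKM after ASLAN003 and 949.5 to 1304 FPKM in DMSO. In MOLM-14, 8 of the 12 rose, against 9.67% of all tested genes. Sums there were 4018 to 7812 FPKM after ASLAN003 and 806.2 to 878.2 FPKM in DMSO. Ribosomal protein genes held 15.7%, 26.2%, 25.5% and 34.0% of the listed FPKM in the same order of groups. The part of these shifts in the values of the carriers was not tested, and in bulk RNA fewer cells of a type and less RNA per cell cannot be told apart.

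Most of the 38 carriers were expressed at moderate levels in every group. In KG-1 ASLAN003, 4 members averaged over 100 FPKM, 21 averaged 10 to 100 FPKM and 13 averaged 1 to 10 FPKM. At least 1 FPKM in every library was found for 36 of the 38, the exceptions being SLC25A35 and SLC25A45. SLC25A3, SLC25A5 and SLC25A6 were the 3 highest members in every group, followed by SLC25A39. These 3 held 51.8% ± 0.693 of the summed FPKM of the family in KG-1 ASLAN003, against 61.2% ± 1.25 in KG-1 DMSO (SD, n = 3 each). In MOLM-14 they held 61.0% ± 4.10 after ASLAN003 and 67.7% ± 0.416 in DMSO (SD, n = 3 each). These shares count SLC25A6 by its chromosome X row only. GENCODE 29 names 9 pseudogenes of SLC25A5, 6 of SLC25A6, 2 of SLC25A3 and 5 each of SLC25A1 and SLC25A15. How fragments that match both a gene and its pseudogenes were assigned is not stated.

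**Figure D1:**
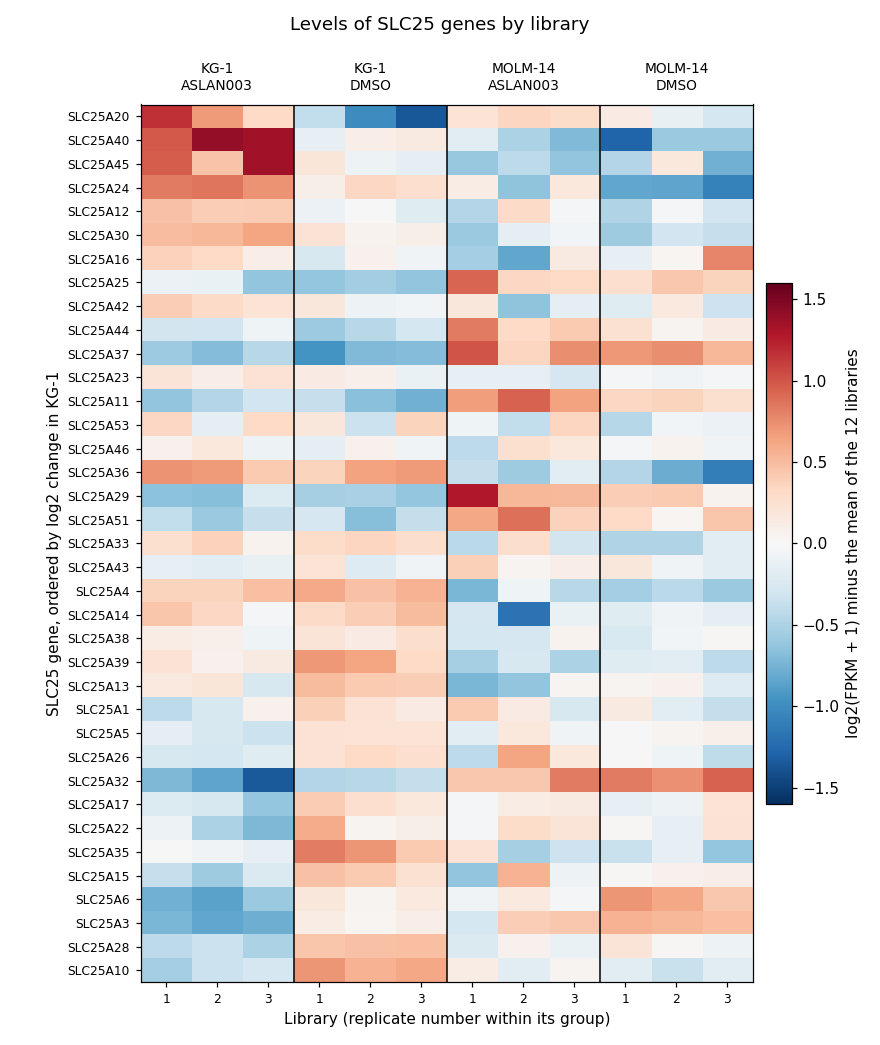
Levels of the SLC25 genes reported here in the 12 libraries, as log2(FPKM + 1) minus the mean of each gene over the libraries, with genes ordered by their log2 change in KG-1 and black lines between the groups. SLC25A20 and SLC25A40 at the top are high in the KG-1 ASLAN003 libraries, SLC25A10 and SLC25A28 at the bottom are low there against KG-1 DMSO, and the columns of MOLM-14 show smaller shifts with treatment.

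In KG-1, more carriers fell after ASLAN003 than rose. At an adjusted p under 0.05 in limma's moderated test on log2(FPKM + 1), 17 of 38 members (44.7%) were called, against 33.6% of all tested genes. Of these, 6 rose (15.8% of members, against 19.4% of all genes) and 11 fell (28.9% of members, against 14.3% of all genes). The libraries of the treatments did not overlap for 23 of 38 members, against 55.9% of all genes. Log2 changes ran between -1.01 and 1.64. Their median was -0.10 over the members and 0.05 over all tested genes, and the members' median turned to 0.03 when FPKM were rescaled to a common sum without mitochondrially encoded, small RNA, ribosomal RNA and histone genes. Such choices of scale moved the median of all genes in KG-1 to -0.07 (median centring), -0.05 (quantile normalization) or 0.18 (rescaling), and the share of rises among all called genes, 57.5%, to 42.8%, 46.1% or 72.7%. On these scales 3, 3 and 7 members rose and 13, 14 and 8 fell, so falls stayed in the majority on each. Leaving out any 1 of the 6 KG-1 libraries lowered the rises to 2 or 3. The falls came to 7 without KG-1 ASLAN003 replicate 2, 6 without KG-1 DMSO replicate 1 and 7 without KG-1 DMSO replicate 2. Calls over all genes also became fewer without single KG-1 libraries, at 24.8% to 28.7%, against 33.6% with all libraries.

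In MOLM-14, 3 of 38 members (7.89%) were called, against 13.0% of all tested genes, a share below the background. SLC25A24 and SLC25A11 rose and SLC25A6 fell, against 9.67% of all genes that rose and 3.31% that fell. The treatments did not overlap for 9 of 38 members, against 25.9% of all genes. The median log2 change was 0.13 over the members and 0.08 over all genes, and the members' median became -0.01 under median centring and -0.02 under quantile normalization. On the 3 other scales (centring, quantile normalization, rescaling) the median of all genes was -0.07, -0.02 and 0.19, and the share of rises among all called genes, 74.5%, was 44.1%, 56.9% and 88.1%. SLC25A24 and SLC25A11 were called under rescaling and not under centring or quantile normalization, whereas SLC25A6 was called on each scale. The spread between replicates was wider here, with a median SD over the members of 0.283 log2 units in MOLM-14 ASLAN003, against 0.136 in KG-1 ASLAN003. Without MOLM-14 ASLAN003 replicate 1, 3 members were again called, of which SLC25A6 was shared, SLC25A24 and SLC25A11 were lost and SLC25A26 was among those gained. Of 23 members compared, 5 had another sign of the MOLM-14 log2 change without that library, none of them called. The shifts reached 0.29 log2 units, for SLC25A15, at 0.17 without it and -0.12 with it. Without MOLM-14 ASLAN003 replicate 3, 3 members fell. Falls over all genes also came to 640 there, against 442 with all libraries, and 17.4% of all genes were called. The calls of rises that other single libraries ended are given with SLC25A24 and SLC25A11. SLC25A24 rose and SLC25A6 fell in both lines, and 20 members were called in neither. Joint calls of this kind were not counted over all genes, so these numbers are a description.

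**Figure D2:**
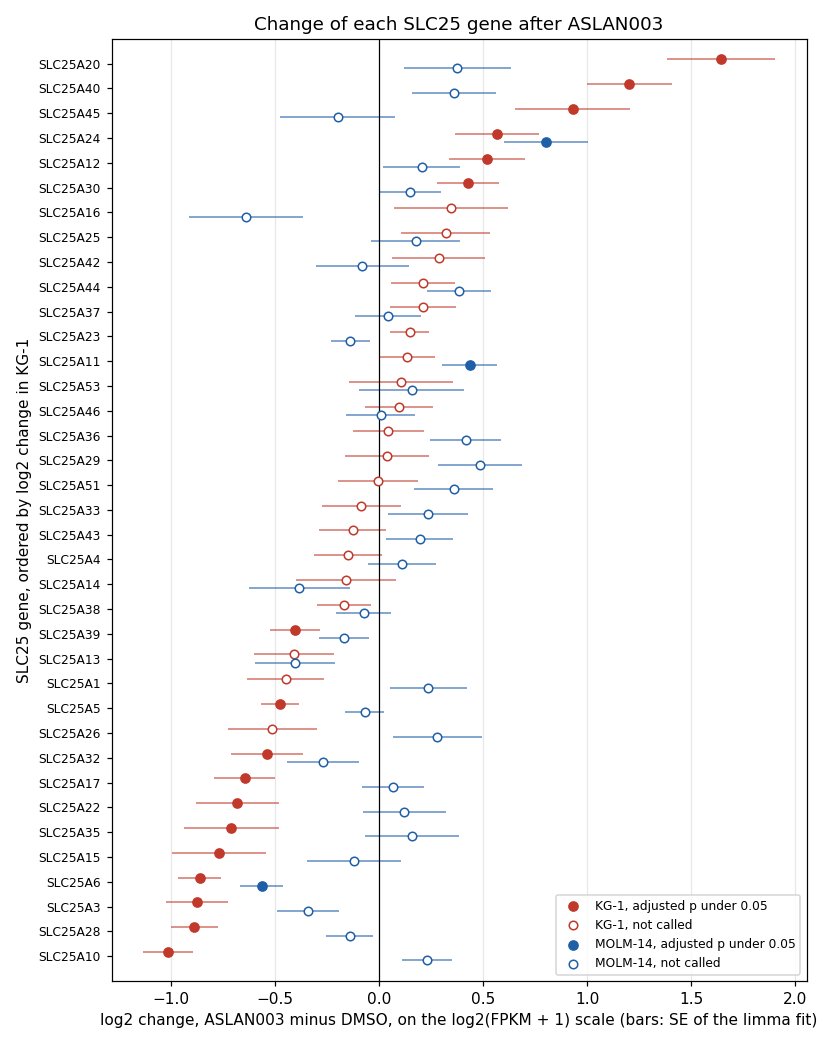
Log2 change (ASLAN003 minus DMSO, on the log2(FPKM + 1) scale) of each SLC25 gene reported here in KG-1 (red) and MOLM-14 (blue), with bars for the SE of the limma fit and filled points for an adjusted p under 0.05. In KG-1, changes run between -1.01 for SLC25A10 and 1.64 for SLC25A20, and most MOLM-14 points are open.

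The promoters of SLC25A20 and SLC25A40, the 2 members with the largest called rises in KG-1, and of SLC25A28, which had the second largest called fall, are shown, from 250 bases before to 50 bases after the start site in RefSeq (GRCh38.p14), 5′ to 3′ on the gene's strand. Capitals mark the letters CCAAT, on either strand, which is the only 1 of the 5 motifs searched that occurred in these 3 sequences. The positions are chr3:48898833-48899132 for SLC25A20 (minus strand), chr7:87876311-87876610 for SLC25A40 (minus strand) and chr10:99620390-99620689 for SLC25A28 (minus strand).
SLC25A20: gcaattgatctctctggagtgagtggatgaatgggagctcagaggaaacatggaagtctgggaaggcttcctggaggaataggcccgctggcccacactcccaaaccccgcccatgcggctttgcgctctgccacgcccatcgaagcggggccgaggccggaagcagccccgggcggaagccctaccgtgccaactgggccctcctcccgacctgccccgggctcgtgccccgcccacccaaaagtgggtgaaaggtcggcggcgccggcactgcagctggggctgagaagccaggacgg
SLC25A40: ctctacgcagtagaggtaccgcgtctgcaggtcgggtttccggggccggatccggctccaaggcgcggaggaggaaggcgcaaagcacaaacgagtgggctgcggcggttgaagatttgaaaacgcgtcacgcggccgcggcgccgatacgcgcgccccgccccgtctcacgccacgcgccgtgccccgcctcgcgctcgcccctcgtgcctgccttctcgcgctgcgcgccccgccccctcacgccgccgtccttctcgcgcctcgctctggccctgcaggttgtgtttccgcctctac
SLC25A28: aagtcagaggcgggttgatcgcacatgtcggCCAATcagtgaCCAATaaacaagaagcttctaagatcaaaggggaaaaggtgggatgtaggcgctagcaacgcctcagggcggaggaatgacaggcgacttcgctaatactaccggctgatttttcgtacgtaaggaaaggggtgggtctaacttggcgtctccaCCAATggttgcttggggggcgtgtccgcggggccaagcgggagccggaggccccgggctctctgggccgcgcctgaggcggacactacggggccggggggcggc

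SLC25A28 held CCAAT 3 times, starting at -219, -208 and -54 from the start site. Of the 38 members, 32 matched a promoter entry, and some matched several. A member was counted if any of its entries held the motif, whereas the background counts single entries. The member and background shares below are therefore of unlike units, which favours the members. CCAAT was found in 1 of 5 members that rose in KG-1, in 6 of 9 that fell and in 11 of 18 that were not called. Together this is 18 of 32 members (56.2%), against 34.6% of the 35116 entries of the table. The E-box CACGTG was found in 8 of 32 members (25.0%) and 7.26% of all entries, with 7 of the 8 among members that were not called. The NRF1 motif was found in 3 members (9.38%) and 5.78% of all entries, the cyclic AMP response element TGACGTCA in 3 members (9.38%) and 1.85% of all entries, and the nuclear receptor site AAGGTCA in 0 members and 3.92% of all entries. Both strands were searched, no motif is part of another, and a match describes letters in the window.

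The carriers that exchange ADP, ATP and phosphate include the most abundant members, and these fell in KG-1. Of 7 carriers of nucleotides and phosphate, 3 fell (42.9%, against 14.3% of all genes), 1 rose (14.3%, against 19.4%) and 3 were not called in KG-1. In MOLM-14, 1 fell (14.3%, against 3.31%), 1 rose (14.3%, against 9.67%) and 5 were not called.

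SLC25A3, the phosphate carrier that feeds ATP synthase (GRCh38 chromosome 12, 98593591 to 98606379, plus strand), had 292, 272 and 282 FPKM in KG-1 ASLAN003, against 528, 497 and 524 FPKM in KG-1 DMSO. Its levels in MOLM-14 were 400, 639 and 657 FPKM after ASLAN003, against 714, 702 and 681 FPKM in DMSO. Every treated library lay below every DMSO library of its line, and MOLM-14 ASLAN003 replicate 1 lay far below the other libraries of that line. The log2 change in KG-1 was -0.87 ± 0.15 (SE, adjusted p = 0.00065). In MOLM-14 it was -0.34 ± 0.15 (adjusted p = 0.154), and -0.11 without MOLM-14 ASLAN003 replicate 1 (adjusted p = 0.309).

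SLC25A6, an ADP/ATP carrier expressed in most tissues (GRCh38 chromosome X, 1386152 to 1392724, minus strand, in a stretch shared with chromosome Y), had 119, 112 and 134 FPKM in KG-1 ASLAN003, against 230.0, 208 and 226 FPKM in KG-1 DMSO. MOLM-14 libraries had 194, 226 and 199 FPKM after ASLAN003, against 330.2, 312 and 274 FPKM in DMSO. The treated libraries lay below all DMSO libraries in each line. SLC25A6 fell by 0.86 ± 0.10 on the log2 scale in KG-1 (adjusted p = 4.19e-05) and by 0.56 ± 0.10 in MOLM-14 (adjusted p = 0.00425). With all libraries no other member fell in both lines, whereas without MOLM-14 ASLAN003 replicate 3 SLC25A13 did as well. Without MOLM-14 ASLAN003 replicate 1 the change of SLC25A6 in MOLM-14 was -0.52 (adjusted p = 0.00972).

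SLC25A5, the ADP/ATP carrier typical of proliferating cells (GRCh38 chromosome X, 119468400 to 119471319, plus strand), had 403, 376 and 353 FPKM in KG-1 ASLAN003, against 525, 523 and 523 FPKM in KG-1 DMSO. The MOLM-14 values were 396, 502 and 432 FPKM after ASLAN003, against 451, 463 and 475 FPKM in DMSO. Libraries of the treatments were apart in KG-1 and overlapped in MOLM-14. The log2 change was -0.47 ± 0.09 in KG-1 (adjusted p = 0.0017) and -0.07 ± 0.09 in MOLM-14 (adjusted p = 0.686).

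SLC25A4, the ADP/ATP carrier of heart and skeletal muscle, was far lower, with 11.8, 11.9 and 13.1 FPKM in KG-1 ASLAN003, against 14.4, 12.9 and 13.8 FPKM in KG-1 DMSO. For MOLM-14 the levels were 5.05, 8.61 and 6.40 FPKM after ASLAN003, against 5.90, 6.44 and 5.66 FPKM in DMSO. The groups overlapped in both lines. Its log2 change was -0.15 in KG-1 (95% interval -0.50 to 0.21, adjusted p = 0.529) and 0.11 in MOLM-14 (95% interval -0.24 to 0.46, adjusted p = 0.717).

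SLC25A24, a calcium-activated exchanger of ATP-magnesium for phosphate, had 14.1, 14.4 and 12.99 FPKM in KG-1 ASLAN003, against 8.10, 9.69 and 9.24 FPKM in KG-1 DMSO. In MOLM-14 it had 8.26, 4.43 and 8.55 FPKM after ASLAN003, against 3.78, 3.74 and 3.00 FPKM in DMSO. All treated libraries were above all DMSO libraries in each line, with MOLM-14 ASLAN003 replicate 2 close to its controls. It rose by 0.57 ± 0.20 in KG-1 (adjusted p = 0.046) and by 0.80 ± 0.20 in MOLM-14 (adjusted p = 0.0213), on the log2 scale. The KG-1 call was lost without any 1 of the 6 KG-1 libraries, or without MOLM-14 DMSO replicate 1 or 2 (adjusted p 0.0555 to 0.145), with a pseudocount of 0.1 (0.0613), under median centring (0.103) and under quantile normalization (0.0843). Over all alternatives its adjusted p ran between 0.0018 and 0.145. The MOLM-14 call was lost without MOLM-14 ASLAN003 replicate 1 (adjusted p = 0.0613) or 3 or MOLM-14 DMSO replicate 3 (0.0533 to 0.0719), under centring (0.0517), under quantile normalization (0.0513) and with the line fitted alone (0.156), in a range of 0.00139 to 0.156. Its paralogs SLC25A23 and SLC25A25 were not called in either line, with log2 changes of 0.15 and 0.32 in KG-1 and of -0.14 and 0.18 in MOLM-14.

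The 2 carriers of pyrimidine nucleotides were not called after ASLAN003 in either line by limma, and SLC25A36 in MOLM-14 was the only 1 of their 4 changes with an unadjusted p under 0.05. SLC25A33, which carries UTP and other pyrimidine nucleotides into the matrix, had 8.19, 8.91 and 6.99 FPKM in KG-1 ASLAN003, against 8.44, 8.81 and 8.36 FPKM in KG-1 DMSO. Its levels in MOLM-14 were 4.70, 8.39 and 5.30 FPKM after ASLAN003, against 4.53, 4.50 and 5.78 FPKM in DMSO. The groups overlapped in each line, and MOLM-14 ASLAN003 replicate 2 was the highest library of that line. The log2 change was -0.08 in KG-1 (95% interval -0.50 to 0.33, adjusted p = 0.776) and 0.24 in MOLM-14 (95% interval -0.18 to 0.65, adjusted p = 0.463).

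SLC25A36, the paralog that carries pyrimidine and guanine nucleotides, had 51.4, 50.1 and 41.8 FPKM in KG-1 ASLAN003, against 39.8, 48.97 and 50.1 FPKM in KG-1 DMSO. MOLM-14 libraries had 23.5, 20.6 and 27.4 FPKM after ASLAN003, against 22.1, 17.4 and 13.8 FPKM in DMSO. KG-1 libraries were high under both treatments, and the treatments overlapped in each line. The log2 change was 0.05 in KG-1 (95% interval -0.32 to 0.41, adjusted p = 0.866) and 0.42 in MOLM-14 (95% interval 0.05 to 0.78, adjusted p = 0.126).

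Among the 3 carriers of di- and tricarboxylates, the dicarboxylate carrier fell in KG-1 and the oxoglutarate carrier rose in MOLM-14. SLC25A10, which exchanges malate and succinate for phosphate, had 18.8, 21.9 and 23.1 FPKM in KG-1 ASLAN003, against 46.5, 41.6 and 43.4 FPKM in KG-1 DMSO. The MOLM-14 values were 30.6, 24.5 and 28.8 FPKM after ASLAN003, against 24.8, 21.6 and 24.6 FPKM in DMSO. The KG-1 groups were far apart, whereas the MOLM-14 groups overlapped, with 2 of the 3 treated libraries above all DMSO libraries. Its log2 change was -1.01 ± 0.12 in KG-1 (adjusted p = 4.35e-05), a fold of 0.496, and 0.23 ± 0.12 in MOLM-14 (adjusted p = 0.239). SLC25A10 shares 1221 of its 2621 exon bases with AC139530.2 on the same strand, so the assignment of its fragments is uncertain.

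SLC25A11, which exchanges oxoglutarate for malate in the malate-aspartate shuttle, had 25.7, 28.9 and 32.4 FPKM in KG-1 ASLAN003, against 30.9, 24.9 and 23.2 FPKM in KG-1 DMSO. For MOLM-14 the levels were 64.6, 78.5 and 63.6 FPKM after ASLAN003, against 50.9, 51.97 and 48.4 FPKM in DMSO. The groups overlapped in KG-1 and were apart in MOLM-14. It rose by 0.44 ± 0.13 on the log2 scale in MOLM-14 (adjusted p = 0.0464), and its log2 change in KG-1 was 0.14 ± 0.13 (adjusted p = 0.458). The MOLM-14 call was lost without any 1 of 9 libraries (adjusted p 0.0514 to 0.127), which were KG-1 ASLAN003 replicates 1 and 2, KG-1 DMSO replicates 2 and 3, MOLM-14 ASLAN003 replicates 1 and 2 and the MOLM-14 DMSO libraries. It was also lost under centring (0.201), quantile normalization (0.110), the line fitted alone (0.109), no trend (0.068) and array weights (0.157), in a range of 0.0076 to 0.201. SLC25A1, the citrate carrier, was not called, with log2 changes of -0.45 ± 0.18 in KG-1 (adjusted p = 0.0801) and 0.24 ± 0.18 in MOLM-14.

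Of 7 amino acid carriers, 2 fell, 1 rose and 4 were not called in KG-1, so that 42.9% were called, against 33.6% of all genes. None was called by limma in MOLM-14, against 13.0% of all genes, where 2 had an unadjusted p under 0.05 and log2 changes ran between -0.40 and 0.49. SLC25A15, the ornithine carrier of the urea cycle, had 14.8, 12.8 and 16.4 FPKM in KG-1 ASLAN003, against 27.3, 26.3 and 23.1 FPKM in KG-1 DMSO. In MOLM-14 it had 12.2, 28.9 and 18.3 FPKM after ASLAN003, against 19.7, 20.3 and 21.0 FPKM in DMSO. The KG-1 groups were apart, and the treated MOLM-14 libraries lay on both sides of their controls. It fell by 0.77 ± 0.23 on the log2 scale in KG-1 (adjusted p = 0.0195). That call was lost without KG-1 ASLAN003 replicate 1 or 2 or KG-1 DMSO replicate 1 or 2 (adjusted p 0.0512 to 0.075), in a range over all alternatives of 9.05e-05 to 0.075.

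SLC25A22, a glutamate carrier, had 9.32, 6.68 and 5.62 FPKM in KG-1 ASLAN003, against 15.4, 10.3 and 10.6 FPKM in KG-1 DMSO. Its levels in MOLM-14 were 9.70, 12.4 and 11.5 FPKM after ASLAN003, against 10.0, 8.93 and 11.8 FPKM in DMSO. The groups were apart in KG-1 and overlapped in MOLM-14. It fell by 0.68 ± 0.20 on the log2 scale in KG-1 (adjusted p = 0.0192), and the call was lost without KG-1 ASLAN003 replicate 2 or 3 or KG-1 DMSO replicate 1 (adjusted p 0.0618 to 0.0972), in a range of 0.00731 to 0.0972.

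SLC25A12, a calcium-regulated aspartate-glutamate exchanger of the malate-aspartate shuttle, had 17.1, 16.2 and 16.2 FPKM in KG-1 ASLAN003, against 11.2, 12.1 and 10.4 FPKM in KG-1 DMSO. MOLM-14 libraries had 8.44, 15.2 and 11.7 FPKM after ASLAN003, against 8.37, 11.8 and 9.56 FPKM in DMSO. Libraries of the treatments were apart in KG-1 and overlapped in MOLM-14. It rose by 0.52 ± 0.18 on the log2 scale in KG-1 (adjusted p = 0.0455). Significance was lost without any 1 of the 6 KG-1 libraries, or without MOLM-14 ASLAN003 replicate 3 or MOLM-14 DMSO replicate 3 (adjusted p 0.051 to 0.129), with a pseudocount of 0.1 (0.0508), under centring (0.126) and under quantile normalization (0.128), in a range of 0.00226 to 0.129. Its paralog SLC25A13 had log2 changes of -0.41 ± 0.19 in KG-1 (adjusted p = 0.121) and -0.40 ± 0.19 in MOLM-14 (adjusted p = 0.192). SLC25A29 (basic amino acids), SLC25A38 (glycine for heme synthesis) and SLC25A44 (branched-chain amino acids) were not called in either line.

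SLC25A20, the carnitine-acylcarnitine carrier that brings fatty acids into the matrix for oxidation (GRCh38 chromosome 3, 48856931 to 48898993, minus strand), had the largest rise of the family in KG-1. It had 13.4, 9.23 and 6.91 FPKM in KG-1 ASLAN003, against 3.85, 2.16 and 1.49 FPKM in KG-1 DMSO. The MOLM-14 values were 6.42, 7.07 and 6.78 FPKM after ASLAN003, against 5.98, 4.84 and 4.22 FPKM in DMSO. The treatments were apart in each line, KG-1 libraries of 1 group spread widely, and KG-1 DMSO was the lowest group. The log2 change was 1.64 ± 0.26 in KG-1 (adjusted p = 0.000358), a fold of 3.12 on the FPKM + 1 scale. In MOLM-14 it was 0.38 ± 0.26 (adjusted p = 0.380).

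All 4 carriers of iron and glutathione differed between the lines in DMSO, against 49.2% of all genes, and 3 of them were called after ASLAN003 in KG-1, 1 higher and 2 lower, against 33.6% of all genes. With 4 members, these counts are a description. None was called by limma in MOLM-14, and 0 had an unadjusted p under 0.05 there. SLC25A40, a glutathione carrier (GRCh38 chromosome 7, 87833568 to 87876357, minus strand), had 42.3, 57.1 and 54.4 FPKM in KG-1 ASLAN003, against 19.02, 22.6 and 23.2 FPKM in KG-1 DMSO. For MOLM-14 the levels were 18.4, 14.4 and 12.4 FPKM after ASLAN003, against 7.99, 13.5 and 13.5 FPKM in DMSO. The KG-1 groups were far apart and the MOLM-14 groups overlapped. It rose by 1.20 ± 0.20 on the log2 scale in KG-1 (adjusted p = 0.0006), a fold of 2.30, and its log2 change in MOLM-14 was 0.36 ± 0.20 (adjusted p = 0.273).

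SLC25A39, the paralog that also carries glutathione, had 126, 112 and 119 FPKM in KG-1 ASLAN003, against 175, 167 and 134 FPKM in KG-1 DMSO. In MOLM-14 it had 74.1, 89.9 and 75.7 FPKM after ASLAN003, against 93.6, 95.3 and 80.4 FPKM in DMSO. The groups were apart in KG-1, with KG-1 DMSO replicate 3 nearest to the treated libraries, and overlapped in MOLM-14. It fell by 0.40 ± 0.12 on the log2 scale in KG-1 (adjusted p = 0.0209). The call was lost without KG-1 ASLAN003 replicate 2 or KG-1 DMSO replicate 1 or 2 (adjusted p 0.0761 to 0.0981) and under rescaling (0.104), in a range of 0.00222 to 0.104.

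SLC25A28, the iron carrier mitoferrin 2 (GRCh38 chromosome 10, 99610522 to 99620609, minus strand), had 24.3, 25.5 and 22.7 FPKM in KG-1 ASLAN003, against 44.7, 45.6 and 46.05 FPKM in KG-1 DMSO. Its levels in MOLM-14 were 27.6, 34.2 and 30.3 FPKM after ASLAN003, against 37.7, 33.2 and 30.9 FPKM in DMSO. The KG-1 groups were narrow and apart, and the MOLM-14 groups overlapped. It fell by 0.89 ± 0.11 on the log2 scale in KG-1 (adjusted p = 6.63e-05), a fold of 0.541, and its log2 change in MOLM-14 was -0.14 ± 0.11 (adjusted p = 0.455).

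SLC25A37, the iron carrier mitoferrin 1 known from erythroid cells, had 20.3, 18.6 and 22.5 FPKM in KG-1 ASLAN003, against 15.4, 18.5 and 18.7 FPKM in KG-1 DMSO. MOLM-14 libraries had 63.0, 39.4 and 52.4 FPKM after ASLAN003, against 50.4, 52.2 and 45.1 FPKM in DMSO. The treatments overlapped in both lines, and every MOLM-14 library was above every KG-1 library. Its log2 change was 0.21 ± 0.16 in KG-1 (adjusted p = 0.327) and 0.04 ± 0.16 in MOLM-14 (adjusted p = 0.901).

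Of 7 carriers of cofactors, 2 fell and 5 were not called in KG-1, so that 28.6% were called, against 33.6% of all genes. None was called by limma in MOLM-14, against 13.0% of all genes, where 2 had an unadjusted p under 0.05. SLC25A17, a peroxisomal carrier of coenzyme A and other nucleotide cofactors, had 11.2, 10.9 and 8.27 FPKM in KG-1 ASLAN003, against 17.8, 16.2 and 15.0 FPKM in KG-1 DMSO. The MOLM-14 values were 12.9, 14.4 and 14.7 FPKM after ASLAN003, against 11.98, 12.5 and 15.6 FPKM in DMSO. Libraries of the treatments were apart in KG-1 and overlapped in MOLM-14. It fell by 0.65 ± 0.15 on the log2 scale in KG-1 (adjusted p = 0.0051), and its log2 change in MOLM-14 was 0.07 ± 0.15 (adjusted p = 0.814).

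SLC25A32, a carrier of folate and flavin adenine dinucleotide, had 7.57, 6.83 and 4.54 FPKM in KG-1 ASLAN003, against 9.15, 9.35 and 9.79 FPKM in KG-1 DMSO. For MOLM-14 the levels were 17.9, 17.9 and 24.0 FPKM after ASLAN003, against 23.9, 22.3 and 25.98 FPKM in DMSO. The KG-1 groups were apart, with KG-1 ASLAN003 replicate 3 the lowest library, and all MOLM-14 libraries were higher. It fell by 0.54 ± 0.17 on the log2 scale in KG-1 (adjusted p = 0.0293), and by 0.35 without KG-1 ASLAN003 replicate 3. That call was lost without that library or any 1 of the KG-1 DMSO libraries (adjusted p 0.0652 to 0.114) and under rescaling (0.104), in a range of 0.00911 to 0.114. SLC25A32 shares 2547 of its 3654 exon bases with AC012213.5 on the same strand, so its values are uncertain.

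Among cofactor carriers that were not called in KG-1, 4 had log2 changes between -0.51 for SLC25A26, which carries S-adenosylmethionine, and 0.34 for SLC25A16. Between these lay SLC25A42 (coenzyme A) and SLC25A51 (NAD+). In MOLM-14 these 4 had log2 changes between -0.64 for SLC25A16 and 0.36 for SLC25A51.

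SLC25A30, related to the uncoupling proteins, had 25.4, 25.9 and 28.1 FPKM in KG-1 ASLAN003, against 21.0, 18.4 and 18.9 FPKM in KG-1 DMSO. In MOLM-14 it had 11.3, 15.8 and 17.2 FPKM after ASLAN003, against 11.6, 14.2 and 13.6 FPKM in DMSO. The groups were apart in KG-1 and overlapped in MOLM-14. It rose by 0.43 ± 0.15 on the log2 scale in KG-1 (adjusted p = 0.0429). Significance was lost without any 1 of the 6 KG-1 libraries, or without MOLM-14 DMSO replicate 2 or 3 (adjusted p 0.0512 to 0.129), under centring (0.162) and under quantile normalization (0.157), in a range of 0.00339 to 0.162. SLC25A14, of the same branch, was not called in either line.

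Of 4 members to which no role is given here, 1 rose (25%, against 19.4% of all genes) and 1 fell (25%, against 14.3%) in KG-1. Both were low in level, and with 4 members these counts are a description. SLC25A45 had 2.48, 1.44 and 3.52 FPKM in KG-1 ASLAN003, against 1.04, 0.68 and 0.62 FPKM in KG-1 DMSO. Its levels in MOLM-14 were 0.17, 0.34 and 0.15 FPKM after ASLAN003, against 0.29, 1.01 and 0.05 FPKM in DMSO. The treated KG-1 libraries were above all others, and MOLM-14 libraries were near the floor of the measurement. It rose by 0.93 ± 0.28 on the log2(FPKM + 1) scale in KG-1 (adjusted p = 0.0206). The call was lost without KG-1 ASLAN003 replicate 1 or 3 or KG-1 DMSO replicate 2 or 3 (adjusted p 0.0616 to 0.0886) and with a pseudocount of 0.1 (0.108), in a range of 0.00392 to 0.108.

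SLC25A35 had 1.82, 1.70 and 1.58 FPKM in KG-1 ASLAN003, against 3.97, 3.6 and 2.75 FPKM in KG-1 DMSO. MOLM-14 libraries had 2.30, 0.94 and 1.23 FPKM after ASLAN003, against 1.19, 1.56 and 0.83 FPKM in DMSO. Libraries of the treatments were apart in KG-1 and overlapped in MOLM-14. It fell by 0.71 ± 0.23 on the log2 scale in KG-1 (adjusted p = 0.0294). That call was lost without KG-1 ASLAN003 replicate 1, 2 or 3 or KG-1 DMSO replicate 1 or 2 (adjusted p 0.0628 to 0.109), with a pseudocount of 0.1 (0.0619) and under rescaling (0.0599), in a range of 0.00174 to 0.109. SLC25A35 shares 1293 of its 3897 exon bases with RANGRF on the opposite strand, and whether counting used strand is not stated. SLC25A43, SLC25A53 and SLC25A46, which shapes the outer membrane, were not called in either line.

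**Figure D3:**
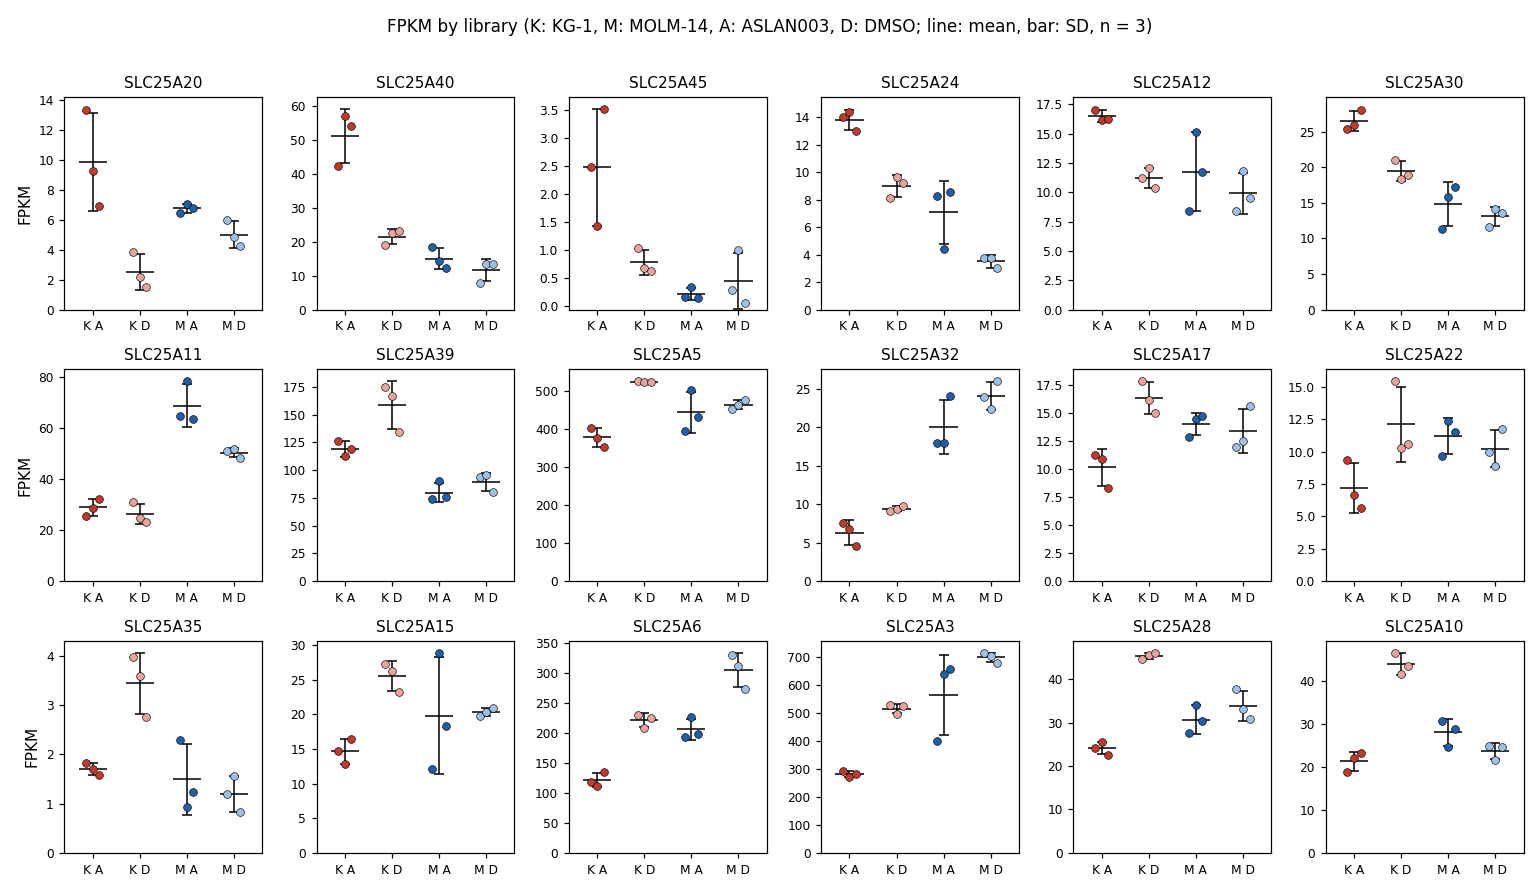
FPKM of the 18 members called after ASLAN003 in KG-1 or MOLM-14, with 1 point per library, a line for the mean and a bar for the SD of 3 libraries, in panels that each have their own linear axis. For SLC25A20, SLC25A40, SLC25A28, SLC25A10 and SLC25A3, the KG-1 ASLAN003 points (K A) are clear of the KG-1 DMSO points (K D).

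For 3 members the change differed between the lines, by limma's test of the difference of changes (KG-1 minus MOLM-14). These 3 are 7.89% of the members, against 9.96% of all tested genes, a share near the background, with 1 higher (against 5.06% of all genes) and 2 lower (against 4.90%). SLC25A10 fell in KG-1 and was not called in MOLM-14, with a difference of -1.24 ± 0.17 log2 units (adjusted p = 0.00112). SLC25A28 had a difference of -0.75 ± 0.16 (adjusted p = 0.0113). SLC25A20 had a difference of 1.27 ± 0.37 (adjusted p = 0.0465), a call that was lost without KG-1 ASLAN003 replicate 1 or 2, KG-1 DMSO replicate 2 or 3, MOLM-14 ASLAN003 replicate 2 or 3 or any 1 of the MOLM-14 DMSO libraries (adjusted p 0.0575 to 0.121). It was also lost with a pseudocount of 0.1 (0.0549), without the filter (0.0502) and with no trend (0.0501), in a range of 0.0176 to 0.121.

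SLC25A17 lay just outside the threshold, with a difference of -0.715 ± 0.21 (adjusted p = 0.05003). The median difference was -0.26 over the members and -0.03 over all tested genes, and the members' median stayed between -0.30 and -0.22 in every alternative. Without MOLM-14 ASLAN003 replicate 1, 10 members were called, 2 higher and 8 lower, and all 3 above were among them. Calls over all genes also became more frequent there, at 17.7%, against 9.96% with that library. Those gained included SLC25A3, SLC25A5, SLC25A15, SLC25A17, SLC25A26 and SLC25A40. The change of SLC25A6 was not called different between the lines, at -0.30 ± 0.14 (95% interval -0.61 to 0.02, adjusted p = 0.228), nor was that of SLC25A24, at -0.23 ± 0.29 (95% interval -0.85 to 0.39, adjusted p = 0.670).

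The lines also differed in DMSO, where 21 of 38 members (55.3%) were called between KG-1 and MOLM-14, against 49.2% of all tested genes. Of these, 10 were higher in KG-1, against 27.1% of all genes, and 11 were lower, against 22.1% of all genes. The lines did not overlap for 27 members, against 63.3% of all genes. The median log2 difference (KG-1 minus MOLM-14) was 0.23 over the members and 0.05 over all genes. These DMSO libraries also serve the treatment comparisons.

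The largest differences upward were in nucleotide carriers. SLC25A36 was higher in KG-1 by 1.35 ± 0.17 log2 units (adjusted p = 2.68e-05), SLC25A24 by 1.15 ± 0.20 (adjusted p = 0.000441) and SLC25A4 by 1.07 ± 0.16 (adjusted p = 0.000146). SLC25A33 was higher in KG-1 as well, by 0.69 ± 0.19 (adjusted p = 0.00923), so each of the pyrimidine nucleotide carriers was higher in KG-1. The largest differences downward were -1.44 ± 0.16 for SLC25A37 (adjusted p = 8.32e-06), -1.26 ± 0.17 for SLC25A32 (adjusted p = 5.59e-05) and -0.96 ± 0.21 for SLC25A25 (adjusted p = 0.00257). SLC25A25, a calcium-activated exchanger of ATP-magnesium for phosphate, had 1.37, 1.49 and 1.36 FPKM in KG-1 DMSO, against 3.40, 3.93 and 3.68 FPKM in MOLM-14 DMSO. Its treated libraries had 2.41, 2.39 and 1.35 FPKM in KG-1 and 5.99, 3.6 and 3.56 FPKM in MOLM-14.

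Several genes above start from different levels in the lines. SLC25A10 was higher in KG-1 DMSO by 0.86 ± 0.12 and SLC25A28 by 0.42 ± 0.11, whereas SLC25A20 was lower by 0.83 ± 0.26 (log2 units). In KG-1 ASLAN003, SLC25A10 averaged 21.3 ± 2.20 FPKM and SLC25A28 24.2 ± 1.44 FPKM, against 23.6 ± 1.81 and 33.9 ± 3.45 FPKM in MOLM-14 DMSO (SD, n = 3 each). The DMSO call of SLC25A20 was lost without KG-1 DMSO replicate 2 or 3 or MOLM-14 DMSO replicate 1 (adjusted p 0.0569 to 0.0864, in a range of 0.00449 to 0.0864). That of SLC25A3, at -0.44 ± 0.15, was lost without any 1 of the 6 DMSO libraries (0.0519 to 0.0798) and under rescaling (0.0779), in a range of 5.40e-05 to 0.0798.

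The balance between some carriers of like substrates differed between the treatments. These pairs were chosen with their values known, so the shares are given with no test. SLC25A40 held 30.0% ± 4.44 of the summed FPKM of SLC25A39 and SLC25A40 in KG-1 ASLAN003, against 12.2% ± 2.47 in KG-1 DMSO, while the sum was 170.4 ± 2.49 FPKM and 180.2 ± 20.1 FPKM. SLC25A12 held 44.2% ± 4.27 of SLC25A12 and SLC25A13 in KG-1 ASLAN003, against 28.6% ± 1.66 in KG-1 DMSO, with sums of 37.6 ± 3.81 FPKM and 39.3 ± 1.52 FPKM. In MOLM-14, SLC25A40 held 15.9% ± 3.42 after ASLAN003 and 11.6% ± 3.35 in DMSO, with overlap. SLC25A12 held 43.7% ± 9.41 in MOLM-14 ASLAN003 and 33.1% ± 3.97 in MOLM-14 DMSO, where the lowest treated library, at 35.7%, was next to the highest DMSO library, at 35.6%. In both of these pairs the KG-1 libraries of the treatments did not overlap in share, and the KG-1 sums differed by less than the larger SD of the groups.

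Mitoferrin 1 (SLC25A37) held 45.8% ± 3.81 of the summed FPKM of the mitoferrins in KG-1 ASLAN003, against 27.8% ± 1.82 in KG-1 DMSO, with sums of 44.6 ± 0.481 FPKM and 63.0 ± 2.51 FPKM. SLC25A28 fell there and SLC25A37 was not called, and in MOLM-14 the share was 62.1% ± 8.07 after ASLAN003 and 59.2% ± 1.94 in DMSO. SLC25A6 held 23.8% ± 2.60 of the ADP/ATP carriers in KG-1 ASLAN003, against 29.2% ± 1.02 in KG-1 DMSO, and 31.5% ± 0.994 in MOLM-14 ASLAN003, against 39.4% ± 2.87 in MOLM-14 DMSO. Only the chromosome X row of SLC25A6 was counted, so these shares may be too low. SLC25A33 held 14.4% ± 0.686 of the pyrimidine nucleotide carriers in KG-1 ASLAN003 and 15.7% ± 1.64 in KG-1 DMSO, and 20.6% ± 7.25 and 22.3% ± 6.40 in the same treatments of MOLM-14. The shares of SLC25A33 overlapped in each line (SD, n = 3 for all shares and sums).

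**Figure D4:**
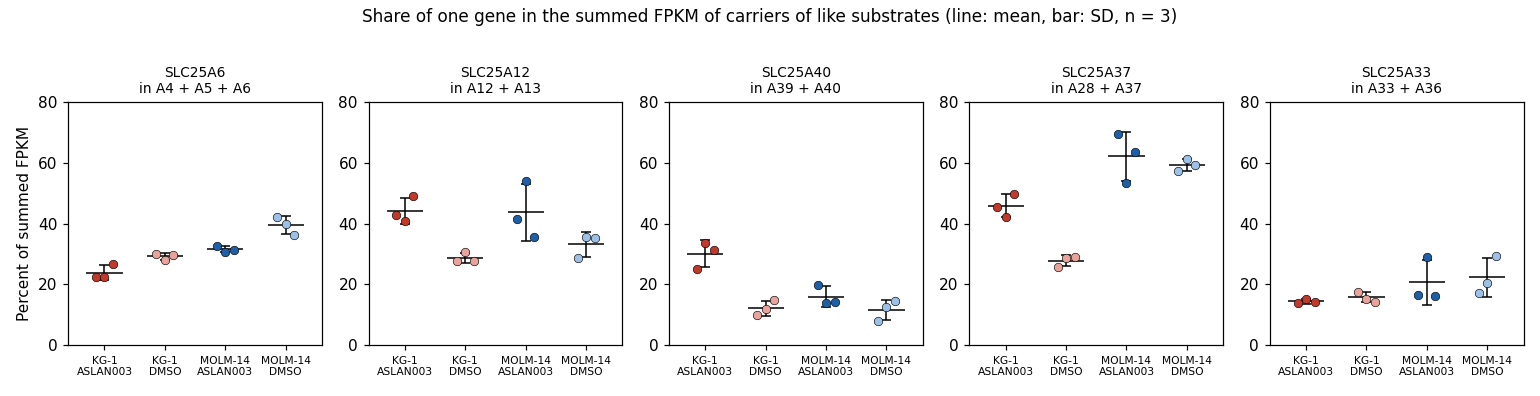
Share of 1 gene in the summed FPKM of carriers of like substrates, in percent, with 1 point per library, a line for the mean and a bar for the SD of 3 libraries. The share of SLC25A40 is 30.0% in KG-1 ASLAN003 and 12.2% in KG-1 DMSO, and that of SLC25A6 is lower after ASLAN003 in each line.

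Summed over the family, the carriers reached 1507 ± 35.2 FPKM in KG-1 ASLAN003, against 2062 ± 47.1 FPKM in KG-1 DMSO. All sums here count SLC25A6 by its chromosome X row only. In MOLM-14 the sum was 1981 ± 203 FPKM after ASLAN003 and 2166 ± 62.4 FPKM in DMSO. MOLM-14 ASLAN003 replicate 1 had 1756 FPKM, and the other treated libraries, with 2150 and 2038 FPKM, were within or close to the DMSO range of 2095 to 2212 FPKM. The difference in KG-1 lay mostly in SLC25A3, SLC25A5 and SLC25A6, since the other members summed to 726.1 ± 7.20 FPKM after ASLAN003 and 800.4 ± 37.6 FPKM in DMSO. In MOLM-14 the other members summed to 766.6 ± 16.4 FPKM after ASLAN003 and 699.1 ± 28.6 FPKM in DMSO. The family held 0.221% of all listed FPKM in KG-1 ASLAN003, against 0.269% in KG-1 DMSO, and 0.256% in MOLM-14 ASLAN003, against 0.258% in MOLM-14 DMSO (SD, n = 3 for all sums). In a principal component analysis of the 38 members, KG-1 and MOLM-14 lay apart on the first axis (58.7%). The second axis (20.3%) divided the treatments of KG-1, at 1.37 to 1.52 in KG-1 ASLAN003 and -1.98 to -1.89 in KG-1 DMSO. On it the treated MOLM-14 libraries had scores of 1.31 in replicate 1 and 0.228 and 0.379, with MOLM-14 DMSO at -0.341 to 0.025.

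Genes that work beside the carriers were counted from lists of whole pathways. The uncoupling protein UCP2, a carrier homologue outside the naming rule, had 78.4, 79.8 and 101 FPKM in KG-1 ASLAN003, against 178, 168 and 157 FPKM in KG-1 DMSO. The MOLM-14 values were 214, 182 and 185 FPKM after ASLAN003, against 98.8, 81.8 and 80.7 FPKM in DMSO. It was lower after treatment in KG-1 and higher in MOLM-14, with no overlap in either line. UCP2 fell by 0.96 ± 0.12 on the log2 scale in KG-1 (adjusted p = 6.72e-05) and rose by 1.15 ± 0.12 in MOLM-14 (adjusted p = 0.000165), and the difference of -2.10 ± 0.17 was called (adjusted p = 2.7e-05). The outer membrane protein MTCH1 rose by 0.39 in KG-1 and by 0.47 in MOLM-14, calls that were lost under centring (adjusted p = 0.0526 and 0.0564), and in MOLM-14 also with the line fitted alone (0.109).

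The machinery that imports carriers fell in part. Of 13 import genes, 7 fell (53.8%, against 14.3% of all genes) and none rose in KG-1, and 3 fell (23.1%, against 3.31%) and none rose in MOLM-14. TIMM13, a chaperone of the intermembrane space, fell by 0.88 ± 0.11 on the log2 scale in KG-1 and by 0.56 ± 0.11 in MOLM-14. In KG-1 the import receptor TOMM20 fell by 0.67, TIMM8A by 0.65 and the receptor TOMM70A by 0.51. The TOMM70A call was lost without any 1 of the 6 KG-1 libraries or MOLM-14 DMSO replicate 1 or 2 (adjusted p 0.0551 to 0.133, in a range of 0.00101 to 0.133). In MOLM-14 the chaperone TIMM10 fell by 0.52 and the pore protein TOMM40 by 0.47. TIMM10 and TOMM40 were also among the 7 that fell in KG-1, so all 3 import genes that fell in MOLM-14 fell in both lines. How the KG-1 calls of TIMM10 and TOMM40 held under the alternatives was not examined. The MOLM-14 call of TOMM40 was lost without MOLM-14 DMSO replicate 1 or 2 (0.0501 and 0.0702, in a range of 0.00631 to 0.0914). Of 3 outer membrane channels, 2 fell in KG-1 (66.7%, against 14.3% of all genes), VDAC1 by 0.75 and VDAC3 by 0.31. None of the channels was called in MOLM-14. The VDAC3 call was lost without KG-1 ASLAN003 replicate 1 or 3, any 1 of the KG-1 DMSO libraries or MOLM-14 DMSO replicate 1 (0.0517 to 0.137, in a range of 0.00217 to 0.248).

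Other inner membrane transporters moved in both directions. Of 20, 7 rose (35.0%, against 19.4% of all genes) and 4 fell (20.0%, against 14.3%) in KG-1, and 4 rose (20.0%, against 9.67%) and none fell in MOLM-14. In KG-1 the sideroflexins SFXN5 and SFXN3 rose by 1.90 ± 0.28 and 1.03 ± 0.16 on the log2 scale, SFXN2 fell by 1.75 ± 0.19 and MCU, the calcium uniporter, rose by 0.83 ± 0.17. In MOLM-14 ABCB10 rose by 0.63 ± 0.11, CCDC109B by 0.64 ± 0.17, SFXN3 by 0.60 ± 0.16 and MCU by 0.57 ± 0.17. ABCB10 went the other way in KG-1, where it fell by 0.36 ± 0.11 (limma, adjusted p = 0.0269). Its difference between the lines, -0.99 ± 0.16, was called (adjusted p = 0.00303). CCDC109B also rose in KG-1, by 0.47 ± 0.17 (adjusted p = 0.0474). How these KG-1 calls of ABCB10 and CCDC109B held under the alternatives was not examined. The MOLM-14 call of CCDC109B was lost without MOLM-14 ASLAN003 replicate 2 or MOLM-14 DMSO replicate 1 or 2 (adjusted p 0.070 to 0.0895, in a range of 0.0073 to 0.106). That of SFXN3 was lost without MOLM-14 ASLAN003 replicate 1 or any 1 of the MOLM-14 DMSO libraries (0.065 to 0.0731, in a range of 0.0114 to 0.103). That of MCU was lost without KG-1 ASLAN003 replicate 1, 2 or 3, KG-1 DMSO replicate 1 or 2, MOLM-14 ASLAN003 replicate 1 or 2 or MOLM-14 DMSO replicate 1 or 2 (0.0561 to 0.160, in a range of 0.0169 to 0.163).

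Enzymes that use what the carriers move were counted by pathway. In KG-1, 1 of 4 carnitine enzymes fell (25%, against 14.3% of all genes). It was CPT2, which rebuilds acyl-coenzyme A in the matrix (-0.58 ± 0.12), beside the rise of SLC25A20. Of 11 malate-aspartate and citrate enzymes, 1 rose (9.09%, against 19.4% of all genes) and 3 fell (27.3%, against 14.3%) in KG-1. ME1 rose by 0.82, whereas ACLY fell by 0.62, MDH2 by 0.55 and IDH2 by 0.32 on the log2 scale. In MOLM-14 only IDH1 was called, with a rise of 0.93 ± 0.09 (9.09% of the list, against 9.67% of all genes that rose). The ME1 call was lost without KG-1 ASLAN003 replicate 2 (adjusted p = 0.0501, in a range of 0.000272 to 0.178), and the IDH2 call without any 1 of the 6 KG-1 libraries (0.0566 to 0.0927, in a range of 0.000927 to 0.240).

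Of 11 enzymes of glycine, folate and glutamate metabolism, 5 fell (45.5%, against 14.3% of all genes) and none rose in KG-1. MTHFD1L, which releases formate from mitochondrial folate, fell by 1.71 ± 0.15 on the log2 scale, PYCR1, which makes proline, by 1.13 ± 0.18, MTHFD1 by 0.77 ± 0.15 and ALDH18A1 by 0.70 ± 0.13. In MOLM-14 GLUD1, glutamate dehydrogenase, rose by 0.34 ± 0.08, a call lost without MOLM-14 DMSO replicate 2 (adjusted p = 0.069, in a range of 0.00243 to 0.153). Of 7 heme and iron enzymes, 1 rose (14.3%, against 19.4% of all genes) and 2 fell (28.6%, against 14.3%) in KG-1. In MOLM-14, 1 rose (14.3%, against 9.67%) and none fell. ALAS1, which starts heme synthesis, rose by 1.67 ± 0.10 in KG-1 and by 0.50 ± 0.10 in MOLM-14. In KG-1 NFS1, which supplies sulfur for iron-sulfur clusters, fell by 0.54 ± 0.12 and CPOX by 0.36 ± 0.12. The CPOX call was lost without any 1 of the 6 KG-1 libraries or MOLM-14 DMSO replicate 2 (0.0511 to 0.105, in a range of 0.00252 to 0.259).

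Some calls of these partner genes also rested on the setting. With MOLM-14 fitted alone, the MOLM-14 calls of TIMM13 and ABCB10 (adjusted p = 0.0577 each), TIMM10 (0.069), ALAS1 (0.0755), GLUD1 (0.115), TOMM40 (0.0882), SFXN3 (0.083), CCDC109B (0.106) and MCU (0.163) were lost, whereas UCP2 and IDH1 stayed called in every alternative. Over all alternatives the adjusted p ran up to 0.0577 for TIMM13, 0.069 for TIMM10, 0.0577 for ABCB10 and 0.0755 for ALAS1 in MOLM-14, from 0.0042, 0.00346, 0.00207 and 0.00217. Median centring and quantile normalization ended the MOLM-14 calls of CCDC109B (0.0703 and 0.0829), GLUD1 (0.153 and 0.063), SFXN3 (0.0813 and 0.0704) and MCU (0.112 and 0.127). Array weights ended those of CCDC109B (0.0879), SFXN3 (0.103), MCU (0.0969) and TOMM40 (0.0914), rescaling that of TOMM40 (0.0616) and no trend that of MCU (0.0586). With the replicate block, CCDC109B (0.054) and MCU (0.0612) were not called in MOLM-14.

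In KG-1, rescaling ended the calls of VDAC3 (0.248), TOMM70A (0.123), IDH2 (0.240) and CPOX (0.259). The fit with no trend ended the same 4 calls, at 0.0727 for VDAC3, 0.0642 for TOMM70A, 0.06 for IDH2 and 0.05003 for CPOX. A pseudocount of 0.1 ended those of ME1 (0.178) and TOMM70A (0.0532), and leaving out the filter that of TOMM70A (0.0502).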

How the data were processed

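RNA of KG-1 and MOLM-14 cells was sequenced with a stranded total RNA kit, per the labels' protocols, in 12 libraries that form 4 groups of 3. The submitters' processing notes name RSEM 1.2.25, the aligner STAR 2.4.2a, bcl2fastq 2.17.1.14 and the builds hg38 and GRCh38. Neither the gene annotation nor the strand setting of counting is stated. The authors deposited 1 table of log2 FPKM values per gene and library, without counts. A lowest value of 0 and steps of 0.01 FPKM at low values showed that 1 had been added to the FPKM before the log2 was taken, so FPKM were recovered as 2 to the power of the deposited value, minus 1. Depth was estimated from the steps of low FPKM values, of which 78.3% to 87.3% per library came within 0.15 fragment of a whole number, against a median of 25.8% to 29.2% over other settings.

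Tests used log2(FPKM + 1) of the 13336 genes that reached 1 FPKM in 3 or more libraries, after dropping 18 chromosome Y rows identical to an X row. limma 3.58.1 in R 4.3.3 fitted 4 group means to all 12 libraries (trend and robust estimation, two-sided), with Benjamini-Hochberg adjustment over all tested genes and calls at an adjusted p under 0.05. Fold changes are on the FPKM + 1 scale, which understates the changes of low genes. Levels and shares were computed in Python 3.11.15 with pandas 2.3.3 and figures drawn with matplotlib 3.10.9. Coordinates come from GENCODE 29 (GRCh38), in which 13802 identifiers (99.4%) were found, and promoters from RefSeq (GRCh38.p14).

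Values per library are given for every member called in KG-1, in MOLM-14 or in the difference between the lines, for the ADP/ATP, phosphate and pyrimidine nucleotide carriers in any case, and for the 3 called members that differ most in each direction between the lines in DMSO. Of each partner list, up to 4 called genes with the largest change in a line are named, with any call they had in the other line. Members and lists were chosen with earlier results of these data known. Alternatives were another pseudocount, other filters, 3 other scalings, each line fitted alone, 2 other variance models, a replicate block and leaving out each library. Same-numbered libraries of the treatments did not deviate together, so the numbers were not used as pairs. The values of 1 member and the promoter of another are not reported here. Keeping the chromosome Y rows, and sums without MOLM-14 ASLAN003 replicate 1, were added after seeing the data.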

Additional observations from a re-analysis of the deposited data

Results flagged for a closer look

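The change after ASLAN003 differed between KG-1 and MOLM-14 for 3 of 38 carriers (7.89%, against 9.96% of all tested genes), by limma's test of the difference of changes (KG-1 minus MOLM-14, log2 units, SE, Benjamini-Hochberg adjusted over all tested genes). The dicarboxylate carrier SLC25A10 had a difference of -1.24 ± 0.171 (adjusted p = 0.00112), with a log2 change of -1.01 in KG-1 and 0.23 in MOLM-14. Mitoferrin 2, SLC25A28, had a difference of -0.746 ± 0.158 (adjusted p = 0.0113), with -0.89 in KG-1 and -0.14 in MOLM-14. The carnitine-acylcarnitine carrier SLC25A20 had a difference of 1.27 ± 0.366 (adjusted p = 0.0465), with 1.64 in KG-1 and 0.38 in MOLM-14. That call of SLC25A20 was lost when any 1 of 9 libraries was left out (adjusted p 0.0575 to 0.121).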

How the results depend on the processing

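The table holds log2 FPKM without counts, so the precision of low genes such as SLC25A35 and SLC25A45 rests on 3 libraries per group. No member called in a comparison changed sign in that comparison under any alternative. The causes of the shifts below were not tested. Leaving out 1 library at a time gave 2 to 6 rises and 6 to 13 falls in KG-1 (6 and 11 with all), 0 to 2 rises and 1 to 3 falls in MOLM-14 (2 and 1), 0 to 2 higher and 2 to 8 lower differences between the lines (1 and 2), and 10 to 12 higher and 9 to 11 lower members in KG-1 DMSO (10 and 11). Over all genes the share called then ran between 24.8% and 39.3% in KG-1 and between 8% and 17.4% in MOLM-14. It ran between 5.6% and 17.7% for the difference and between 41.6% and 54.4% in DMSO. The family median stayed at -0.14 to -0.07 in KG-1, 0.05 to 0.16 in MOLM-14, -0.29 to -0.22 for the difference and 0.18 to 0.29 in DMSO. The family median in KG-1 was -0.23 under centring, -0.23 under quantile normalization and 0.030 under rescaling, that in MOLM-14 was -0.015 under centring and -0.015 under quantile normalization, and that between lines in DMSO was 0.35 under rescaling. Rises in KG-1 came to 3 with a pseudocount of 0.1, centring or quantile normalization. Rises in MOLM-14 came to 0 under centring, quantile normalization or the line alone, and to 1 with no trend, array weights or the replicate block. Higher differences came to 0 with a pseudocount of 0.1, no filter or no trend, lower ones to 4 under quantile normalization and 7 with array weights, and members higher in KG-1 DMSO to 17 under rescaling or array weights. Over all genes, MOLM-14 had 1290 rises and 442 falls, against 279 and 65 with the line alone, 712 and 235 with array weights, 726 and 920 under centring, 747 and 565 under quantile normalization and 2156 and 291 under rescaling. KG-1 had 2581 and 1906, against 3995 and 3010 with array weights, and the difference 675 and 653, against 1116 and 1104 with array weights and 1177 and 1183 without MOLM-14 ASLAN003 replicate 1. Rises were 57.5%, 74.5% and 55.1% of all calls in KG-1, MOLM-14 and between lines in DMSO, where the last came to 65.7% under rescaling.

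Same-numbered libraries had correlations of deviations of 0.0408, 0.0198 and 0.0321 in KG-1 and 0.1, -0.00207 and 0.0399 in MOLM-14, so the numbers were not taken as pairs. With the replicate block 17 members were called in KG-1, 16 of them shared (SLC25A24 lost at an adjusted p of 0.0684, SLC25A1 gained), 2 in MOLM-14 (SLC25A11 lost at 0.0842), 4 in the difference (SLC25A17 gained) and the same 21 between lines in DMSO. Among the partner genes it ended the MOLM-14 calls of CCDC109B (0.054) and MCU (0.0612).

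Signs turned for members that were not called. In MOLM-14, rescaling gave 0.0086 for SLC25A15 and 0.065 for SLC25A5. Centring gave -0.080 for SLC25A17, -0.029 for SLC25A22, -0.00112 for SLC25A30, -0.106 for SLC25A37 and -0.039 for SLC25A4. Quantile normalization gave -0.073 for SLC25A17, -0.031 for SLC25A22, -0.050 for SLC25A37 and -0.057 for SLC25A4, and array weights gave -0.016 for SLC25A35 and -0.033 for SLC25A37. Leaving out 1 library gave -0.420 to 0.172 for SLC25A15, -0.027 to 0.282 for SLC25A25, -0.063 to 0.320 for SLC25A35, -0.111 to 0.222 for SLC25A37, -0.064 to 0.270 for SLC25A4, -0.404 to 0.065 for SLC25A45 and -0.162 to 0.0093 for SLC25A5. In KG-1, SLC25A33 came to 0.051 under rescaling and ran between -0.154 and 0.0013 without single libraries. SLC25A36 came to -0.075 under centring and -0.031 under quantile normalization and ran between -0.056 and 0.137. The difference of SLC25A37 ran between -0.0098 and 0.323, and SLC25A45 between lines in DMSO came to -0.0027 under quantile normalization.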
